A study of Caenorhabditis elegans with 15 samples.

Results

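The 32 genes described here encode the proteins of the small (40S) subunit of the cytosolic ribosome of the nematode Caenorhabditis elegans. They were taken from a list of 32 sequence names, each matched to the probe names of a whole genome oligonucleotide array without a final isoform letter. All 32 were found, each with 1 probe printed as 1 spot, out of 19084 gene probes on the array. The ribosome reads messenger RNA in its small subunit and joins amino acids in its large subunit. The small subunit has a head, a body and a platform, holds the messenger RNA in a channel between head and body, and is put together in the nucleolus with the help of assembly factors. Ribosomal protein genes are transcribed strongly in growing tissue and in the germline, they are known for moving together, and in C. elegans their output follows the TOR pathway, which senses nutrients and stress.

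The samples were whole animals of the N2 (Bristol) strain, labelled as L4 larvae and young adults. They had been kept on sediment of 3 rivers, which the methods describe as highly (Elbe), moderately (Rhine) and weakly (Danube) contaminated. Each of the 5 Elbe, 5 Rhine and 5 Danube samples came from worms kept for 48 h with 0.5 g of wet sediment, E. coli as food and 20000 worms per vial, with 24 vials pooled per replicate. No group without sediment is analysed here, so Danube worms stood as the comparison. On every array the worms' complementary DNA carried the dye Cy5 and the same universal reference of C. elegans carried Cy3. The replicates are called biological. The study's methods state that sediment subsamples were combined and homogenised on site, and they describe no separate sediment for each replicate. So p-values here measure the spread between these worm pools, and not that between sediment samples of the same river. Contamination and other properties of the 3 sediments cannot be told apart.

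The level of a gene is given as log2(Cy5/Cy3), the log2 ratio to the reference, after a loess correction within each of the 48 print blocks of the slide. A difference of 1 is a 2-fold change. The spot's brightness is given on the linear scale of the scanner software and describes spots, not the amount of one messenger RNA against another. The scanner software graded each spot for confidence, and 5347 probes were used, those graded better than the lowest step on 3 or more arrays of every sediment.

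Of the 32 genes, 31 passed that filter, and 30 of these lay above the lowest grade on all 15 arrays. Their spots were among the brightest on the slide. The median member stood at percentile 97.9 of all gene probes in Cy5 and 97.1 in Cy3, and the members ran from percentile 84.4 (rps-20) to 99.8 (rps-25) in Cy5. rps-25 (K02B2.5), whose protein sits in the head and is needed for initiation at viral internal ribosome entry sites in yeast and human cells, was the brightest, with a median of 64578 in Cy5 and 39355 in Cy3. rps-20 (Y105E8A.16), a head protein that is marked with ubiquitin when ribosomes collide in human cells, was the dimmest member measured. Its medians were 3033 in Cy5 and 1306 in Cy3, and it passed the grade on 14 of 15 arrays, all but Rhine 1. The exception was rps-5 (T05E11.1), which encodes a head protein beside the exit of the messenger RNA channel. Its spot was at the lowest grade on all 15 arrays, with medians of 1180 in Cy5 and 831 in Cy3, and its ratios ran over -0.23 to 1.53 in Elbe, -0.18 to 1.98 in Rhine and -1.36 to 2.84 in Danube worms. It had no usable level and took no further part.

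**Figure D1:**
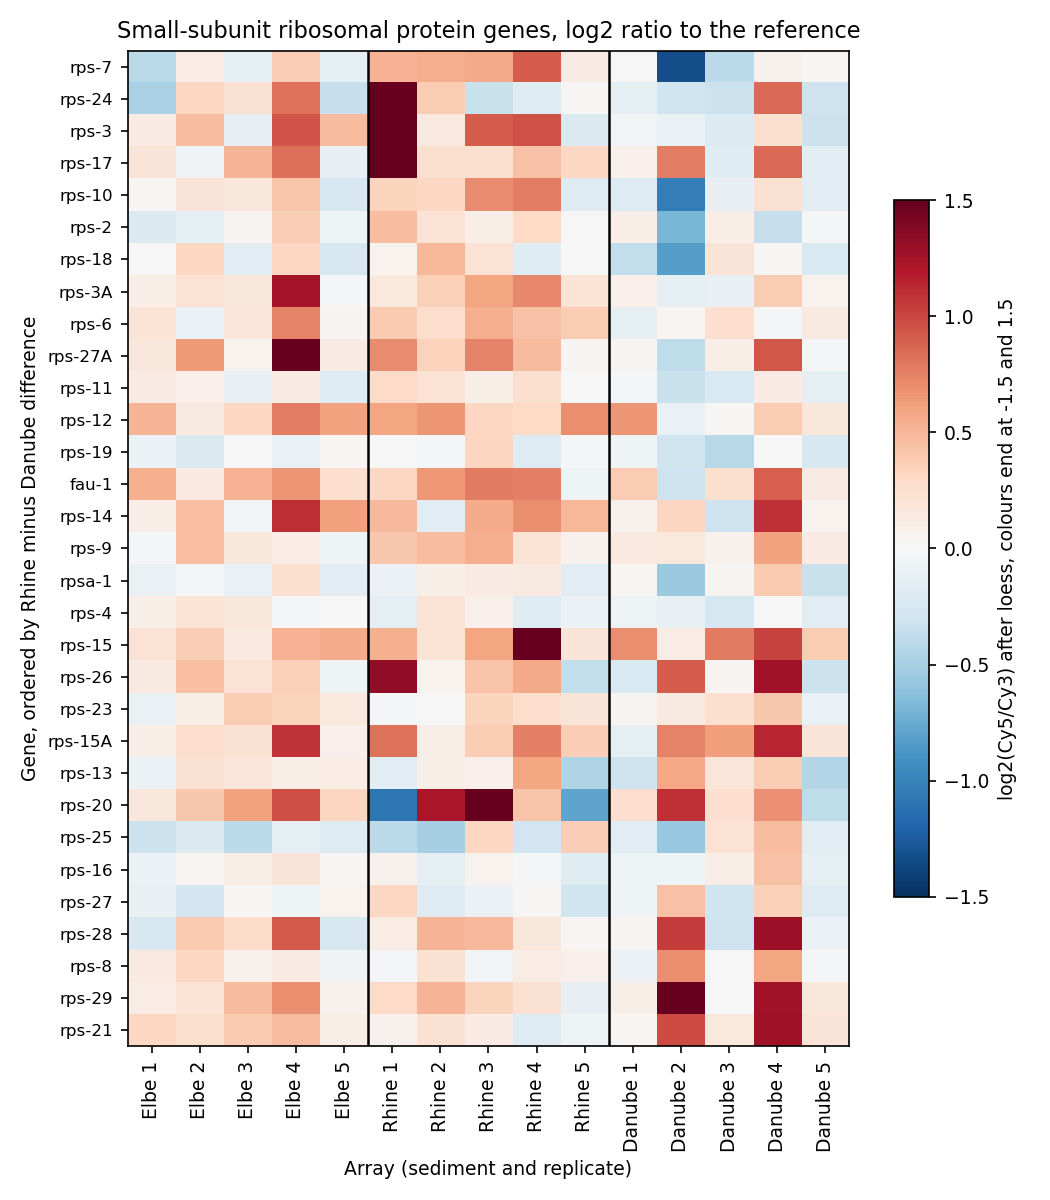
Log2(Cy5/Cy3) after loess for the 31 measured small-subunit genes (rows, ordered by the Rhine minus Danube difference) on the 15 arrays (columns, Elbe, Rhine and Danube replicates 1 to 5); red is above and blue below the reference, and colours end at -1.5 and 1.5. Danube 2 holds both the lowest value (rps-7 at -1.33) and the highest (rps-29 at 1.49) of the Danube arrays, Danube 4 and Elbe 4 are red in most rows, and rps-24, rps-3 and rps-17 are past the end of the scale on Rhine 1.

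Small-subunit genes varied little between arrays of 1 sediment. The SD of the log2 ratio within sediments had a median of 0.35 over the 31 members, against 0.61 over all 5347 probes, and 28 of the 31 lay below the median of all probes. Large-subunit genes (47 measured of 50) had a median SD of 0.30, and mitochondrial ribosomal protein genes (27 of 64) one of 0.59. Brightness moved with this, since the median large-subunit spot stood at percentile 98.2 in Cy5 and the median mitochondrial one at percentile 64.1, and its part was not tested. The steadiest member was rps-4 (Y43B11AR.4), a protein of the body of the subunit, with an SD of 0.13. The most variable was rps-24 (T07A9.11), a body protein that is mutated in the human disorder Diamond-Blackfan anaemia, with an SD of 1.13.

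The members also moved together from array to array. After the sediment means were taken out, the mean correlation over the 465 pairs of members was 0.26, with 79.8% of pairs above 0. It was 0.19 for large-subunit pairs, 0.0052 for mitochondrial ribosomal pairs and 0.04 over all pairs of probes. These are descriptions over 15 arrays that the genes share, as they share labelling, loess curves and brightness. The 21 pairs printed in the same block had a mean correlation of 0.43 and the 444 pairs in different blocks 0.25. Without Danube 2, Danube 4 and Rhine 1, the members' mean correlation was 0.27 and that of all probes 0.02. Elbe 4, which like Rhine 1 had 2 outlying member values, stayed in. Joint movement without every array that stood apart was not measured.

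The closest pairs included rps-28 with rps-29 (0.92) and rps-21 with rps-29 (0.91), which lie in different print blocks. rps-28 and rps-29 encode small proteins of the head, and rps-29 binds zinc. rps-21 (F37C12.11) encodes a protein of the body that binds the product of rpsa-1 in Drosophila. The closest pair of all, rps-17 with rps-24 (0.93), was printed 3 places apart in the same block. At the other end, rps-8 and rps-2 had a correlation of -0.70, and rps-4 had the lowest mean correlation with the other members (0.05), against 0.47 for rps-16.

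**Figure D2:**
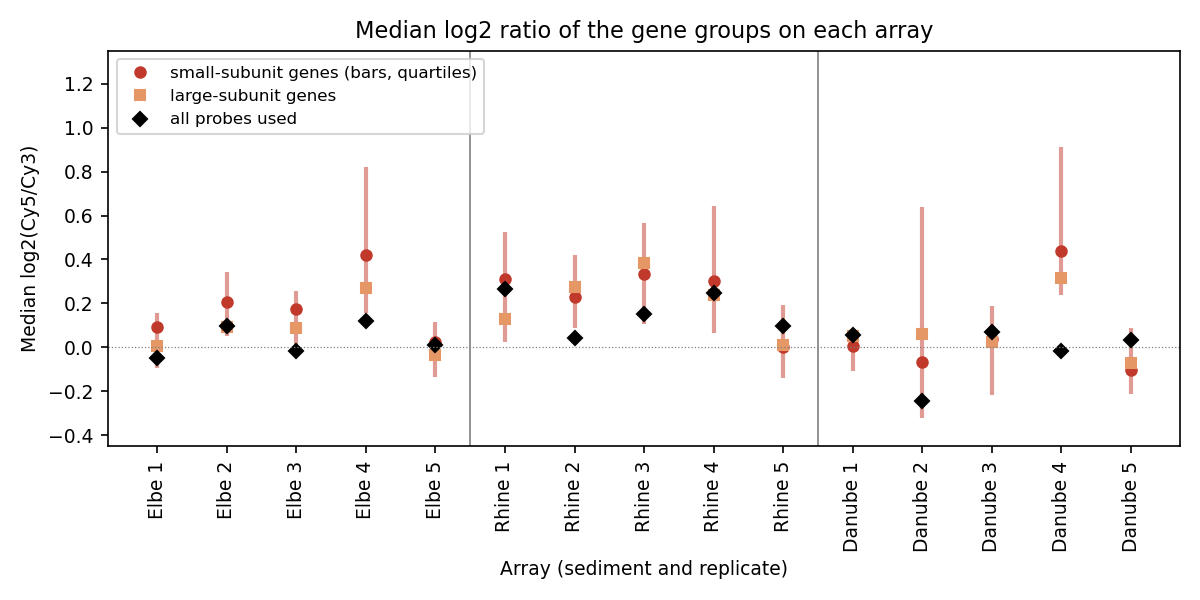
Median log2(Cy5/Cy3) on each array (Elbe, Rhine and Danube replicates 1 to 5) of the 31 small-subunit genes (circles, with bars over the quartiles), the 47 large-subunit genes (squares) and all 5347 probes used (diamonds). Danube 4 had the highest small-subunit median (0.44) and Danube 5 the lowest (-0.10), so the Danube arrays span the medians of all Elbe and Rhine arrays.

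On single arrays, the median of the 31 members was 0.09, 0.21, 0.17, 0.42 and 0.02 in Elbe worms (replicates 1 to 5). It was 0.31, 0.23, 0.34, 0.30 and 0.00 in Rhine worms, and 0.01, -0.07, 0.04, 0.44 and -0.10 in Danube worms. The sediments overlapped fully, since the highest and the lowest of the 15 medians were both from Danube arrays. Danube 4 had 29 of 31 members above the median of all its probes. Danube 2 had the widest middle spread, with 0.96 between the quartiles of the members, against 0.19 on Danube 1. The file headers hold slide numbers, which were split here at their widest gap into 2 runs, called slide series. Danube 1 to 4 lie in 1 run, and Danube 5 with all Elbe and Rhine arrays in the other. What the runs stand for is not labelled. A difference from Danube cannot be told apart from one between the runs, except through Danube 5.

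Elbe against Danube asked whether the most contaminated sediment left another level of ribosomal messenger RNA than the least contaminated one. No difference of a single small-subunit gene between Elbe and Danube worms was detectable with these arrays. With limma and Benjamini-Hochberg adjustment over all probes, 0 of 31 members passed, against 0.0187% of all probes. At an unadjusted p under 0.05 it was also 0 of 31, against 6.32% of all probes, and at the thresholds of the study's methods, 0 were higher and 0 lower, against 4.34% and 1.95%. These thresholds are a fold of 1.4 or more, or of 0.7 or less, together with an unadjusted p under 0.05. No member's groups were free of overlap, against 1.31% of all probes that were higher and 0.561% that were lower without overlap. The members' median difference was 0.11 and that of all probes 0.08, with 20 of 31 members above 0, as were 57.1% of all probes. With one loess curve per array the members' median was -0.0082, against 0.10 over all probes. The differences ran from -0.29 (rps-29) to 0.46 (rps-3). For 26 of the 31 genes the 95% interval of the difference lay within a 2-fold change either way. Elbe and Rhine are set against the same 5 Danube arrays, so the 2 comparisons are not independent.

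The 4 members with the lowest p were all higher in Elbe worms by estimate. rps-3 (C23G10.3) encodes a head protein at the entry of the messenger RNA channel. Its ratio was 0.12, 0.46, -0.12, 0.94 and 0.47 in Elbe worms, against -0.04, -0.10, -0.21, 0.25 and -0.32 in Danube worms, and the groups overlapped through Elbe 1 and 3. The difference was 0.46 (SE 0.34, n = 5 each), with an adjusted p of 0.88 by limma and an exact two-sided permutation p of 0.063, and one loess curve per array put it at 0.075. rps-10 (D1007.6) encodes a protein of the beak of the head, marked by ubiquitin in stalled human ribosomes. It stood at 0.01, 0.19, 0.17, 0.42 and -0.26 in Elbe worms, against -0.19, -1.04, -0.12, 0.23 and -0.17 in Danube worms, a difference of 0.37 (SE 0.27) that leaned on the low Danube 2. Without Danube 2 the estimate for rps-10 in Elbe worms was 0.17 (adjusted p = 0.97, limma).

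rps-27A (H06I04.4) encodes ubiquitin fused to a small-subunit protein. It had ratios of 0.17, 0.64, 0.05, 1.65 and 0.12 in Elbe worms, against 0.05, -0.38, 0.10, 0.93 and -0.03 in Danube worms. Replicate 4 was the highest array in both groups, and the difference was 0.40 (SE 0.33, limma adjusted p = 0.88). Without Elbe 4 it was 0.12 and without Danube 4 it was 0.59. rps-18 (Y57G11C.16), a head protein that touches the large subunit, stood at -0.01, 0.31, -0.16, 0.31 and -0.25 in Elbe worms, against -0.37, -0.82, 0.20, 0.02 and -0.23 in Danube worms. Its difference was 0.28 (SE 0.24, limma adjusted p = 0.88), and Danube 1 and 2 lay below all Elbe arrays while the other 3 lay among them. Without Danube 2 the estimate for rps-18 was 0.14. For rps-27A a single loess curve per array gave -0.0014, median centring without loess 0.31, and a loess fitted without ribosomal protein spots 0.38.

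The smallest spread between arrays belonged to rps-4, with ratios of 0.09, 0.20, 0.17, -0.03 and -0.01 in Elbe worms, against -0.08, -0.11, -0.25, 0.01 and -0.16 in Danube worms. The groups overlapped through Danube 4, and the difference was 0.20 with a 95% interval of -0.19 to 0.59. Its exact permutation p was 0.024 without adjustment, the only one of 31 below 0.05 in this comparison. Of all probes, 4.99% were higher and 2.64% lower at such a p. With limma, which shares the spread across probes, its unadjusted p was 0.29 and its adjusted p 0.90.

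**Figure D3:**
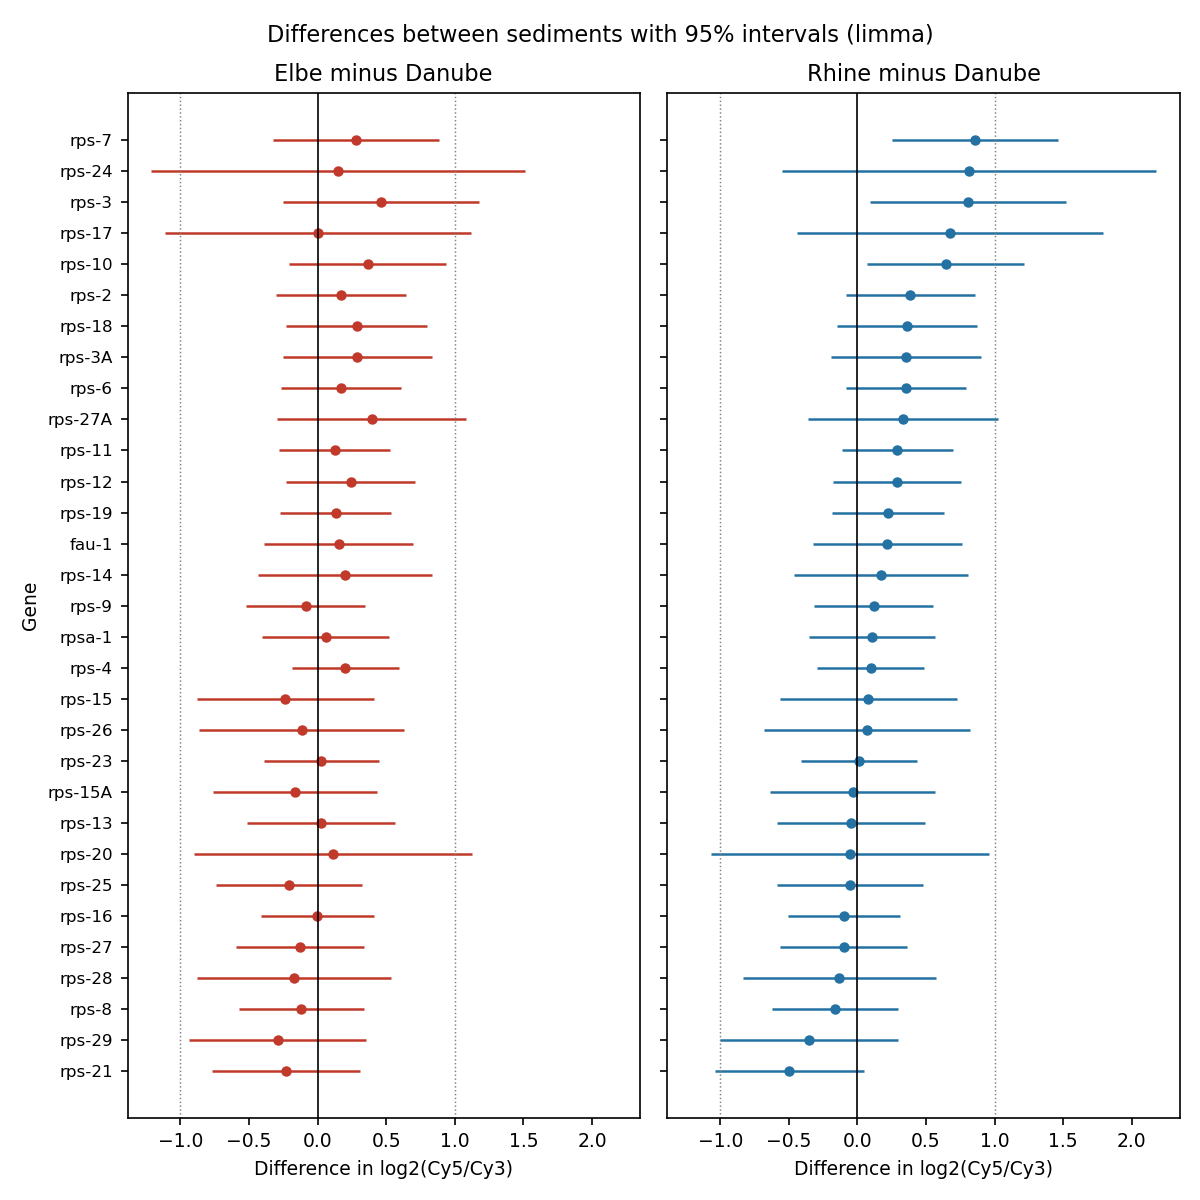
Difference in log2(Cy5/Cy3) for the 31 small-subunit genes (rows, in the same order in both panels), Elbe minus Danube on the left and Rhine minus Danube on the right; points are limma estimates, bars their 95% intervals (n = 5 each), and dotted lines mark a 2-fold change. All Elbe intervals cross 0, and only those of rps-7, rps-3 and rps-10 in Rhine do not.

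Rhine against Danube asked the same of the sediment ranked in the middle. Here 3 genes, rps-7, rps-3 and rps-10, were higher in Rhine worms at the methods' thresholds, and 0 were lower. That is 9.68% of the members, near the 11.4% of all probes that were higher at these thresholds in the same comparison (1.44% were lower). At an unadjusted limma p under 0.05 the same 3 passed, against 12.9% of all probes, and 0 members passed after adjustment, as did 0% of all probes. The members' median difference was 0.12 and that of all probes 0.24, and 21 of 31 members were above 0, against 69.9% of all probes. This order of the medians rested on Danube 4 and on the loess, since without Danube 4 the members had 0.27 and all probes 0.24, and with ribosomal protein spots left out of the loess the members had 0.24 and all probes 0.25. Differences ran from -0.50 (rps-21) to 0.86 (rps-7).

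rps-7 (ZC434.2) encodes a body protein that is needed for the maturation of small-subunit RNA and that binds the p53 regulator MDM2 in human cells. Its ratio was 0.52, 0.55, 0.57, 0.90 and 0.13 in Rhine worms, against 0.01, -1.33, -0.39, 0.06 and 0.03 in Danube worms. All 5 Rhine arrays lay above all 5 Danube arrays. The difference was 0.86 (SE 0.28, n = 5 each), a 1.81-fold change, with an unadjusted p of 0.0082, an adjusted p of 0.34 by limma and an exact permutation p of 0.0079, the smallest that 5 against 5 arrays can give. Without Danube 2 the difference was 0.61 (adjusted p = 0.53, limma), and with any single array left out it stayed between 0.61 and 0.96. Its loess-corrected signal, with the array's median taken off, differed by 0.75 in Cy5 (limma adjusted p = 0.63) and by -0.03 in Cy3. Blocked by slide series, the ratio differed by 0.50 (unadjusted p = 0.33, limma), a fit in which Danube 5 alone carries the comparison.

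rps-3 stood at 1.81, 0.14, 0.91, 0.95 and -0.22 in Rhine worms, against -0.04, -0.10, -0.21, 0.25 and -0.32 in Danube worms. Rhine 1, 3 and 4 lay above all Danube arrays and Rhine 2 and 5 among them. The difference was 0.80 (SE 0.34, limma adjusted p = 0.36), with an exact permutation p of 0.079. Without Rhine 1 it was 0.53 with an unadjusted p of 0.094, and in the fit blocked by slide series 1.04 with an unadjusted p of 0.10 (limma). For rps-10 the values were 0.33, 0.31, 0.71, 0.77 and -0.20 in Rhine worms, against -0.19, -1.04, -0.12, 0.23 and -0.17 in Danube worms. Of the 5 Rhine arrays, 4 were above all Danube arrays. The difference was 0.64 (SE 0.27, limma adjusted p = 0.36), the exact permutation p was 0.040, and without Danube 2 the difference was 0.45 with an unadjusted p of 0.084 (limma). The blocked fit put rps-10 at 0.55 (unadjusted p = 0.27, limma). Without Rhine 3 or without Rhine 4, 1 member remained past the methods' thresholds, rps-7, against 10.3% and 8.83% of all probes that were higher. rps-7 and rps-10 were printed in the same block.

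rps-6 (Y71A12B.1), the substrate of the S6 kinase of the TOR pathway, was not among the 4 lowest p values but was the other member whose groups did not overlap, and it is named for that after its values were seen. It stood at 0.39, 0.26, 0.54, 0.44 and 0.38 in Rhine worms, against -0.14, 0.03, 0.26, -0.03 and 0.13 in Danube worms, with the lowest Rhine array (0.261) just above the highest Danube one (0.257). The difference was 0.35 (SE 0.21, limma adjusted p = 0.46), and the exact permutation p was 0.0079. Thus 2 of 31 members (6.45%) were higher without overlap, against 1.87% of all probes, and 0 were lower without overlap, against 0.243%. In exact permutation tests of single genes, 6 of 31 had an unadjusted p under 0.05, all of them higher in Rhine worms, against 8.43% of all probes that were higher and 1.37% that were lower at such a p. The other 3 were rps-2 (0.39), rps-11 (0.29) and rps-3A (0.35), whose proteins lie in the body and platform.

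The lowest member was rps-21, with 0.06, 0.23, 0.12, -0.19 and -0.07 in Rhine worms, against 0.03, 0.98, 0.16, 1.27 and 0.20 in Danube worms. The Danube mean rested on the high Danube 2 and 4, and the other 3 Danube arrays lay inside the Rhine range. Its difference was -0.50 (SE 0.26, limma adjusted p = 0.42), and -0.31 without Danube 4.

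**Figure D4:**
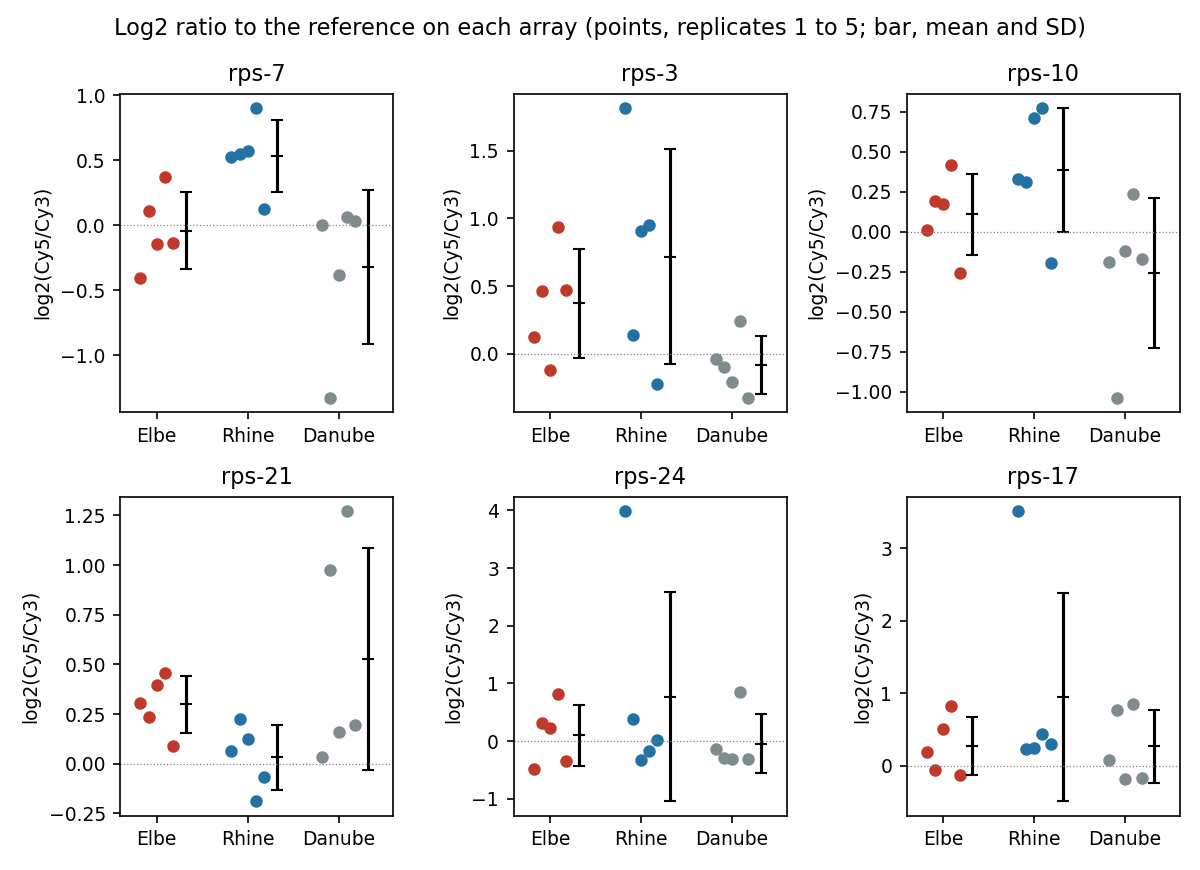
Log2(Cy5/Cy3) on each array for 6 small-subunit genes, with Elbe, Rhine and Danube worms from left to right (points, replicates 1 to 5 in order; bars, mean and SD). rps-7 separates the Rhine from the Danube arrays, the Danube group of rps-21 has 2 high arrays (0.98 and 1.27), and rps-24 and rps-17 each have a single Rhine array far above the others (3.98 and 3.50).

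Elbe against Rhine set the 2 more contaminated sediments against each other. No member passed after adjustment (0% of all probes did), and 0 of 31 had an unadjusted limma p under 0.05, against 10.7% of all probes. At the methods' thresholds 0 were higher or lower, against 2.49% and 8.02%. Groups overlapped for every member, while 0.785% of all probes were higher and 2.67% lower without overlap. The members' median difference was -0.06 and that of all probes -0.17, and 10 of 31 members were above 0, against 35.7% of all probes. The lowest p was that of rps-7, which stood at -0.41, 0.11, -0.15, 0.37 and -0.14 in Elbe worms, against 0.52, 0.55, 0.57, 0.90 and 0.13 in Rhine worms. Rhine 5 lay below Elbe 4, and the other Rhine arrays lay above all Elbe arrays. The difference was -0.58 (SE 0.28, limma adjusted p = 0.47), and the exact permutation p was 0.016 without adjustment. rps-21 was at 0.31, 0.24, 0.40, 0.46 and 0.09 in Elbe worms, against 0.06, 0.23, 0.12, -0.19 and -0.07 in Rhine worms, a difference of 0.27 (SE 0.26, limma adjusted p = 0.73) with an exact permutation p of 0.032. These were the 2 of 31 members with an exact p under 0.05, 1 lower and 1 higher, against 9.95% of all probes lower and 2.86% higher.

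The other 2 members named for this comparison rested on 1 array. rps-24 had ratios of -0.49, 0.31, 0.23, 0.81 and -0.35 in Elbe worms, against 3.98, 0.38, -0.34, -0.18 and 0.02 in Rhine worms. rps-17 (T08B2.10), a head protein also mutated in Diamond-Blackfan anaemia, had 0.20, -0.05, 0.51, 0.83 and -0.13 in Elbe worms, against 3.50, 0.24, 0.24, 0.44 and 0.31 in Rhine worms. Both were extreme on Rhine 1 only, and otherwise the sediments overlapped. The differences were -0.67 (SE 0.64) for rps-24 and -0.68 (SE 0.53) for rps-17. Without Rhine 1 that of rps-24 was 0.135 and that of rps-17 was -0.04.

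These 2 genes and rps-20 were printed in block 4 of the slide, at places 60, 63 and 44. On Rhine 1 the median uncorrected log2 ratio of that block was -1.81, against -1.37 on Rhine 2 and values from 0.43 to 2.13 on the other 13 arrays. Before the loess correction rps-24 was at 2.45 on Rhine 1, against 1.26 to 1.85 on the other Rhine arrays, and rps-17 was at 1.79, against 0.73 to 2.38. So the uncorrected ratio of rps-17 on Rhine 1 lay inside the range of the other Rhine arrays, and the corrected one did not.

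By place in the subunit, the 13 measured genes of head proteins had a median difference of 0.11 in Elbe against Danube, 0.22 in Rhine against Danube and -0.08 in Elbe against Rhine. The 18 of body and platform proteins had 0.09, 0.11 and -0.06. This grouping comes from the known structure of the ribosome and was made with the values known, so it is a description. Of the proteins that line the messenger RNA channel and its decoding centre, rps-2 had a difference of 0.39 in Rhine against Danube, fau-1 (a ubiquitin-like protein fused to a small-subunit protein) 0.22, rps-9 0.12 and rps-23 0.01, and none of these 4 passed the limma test. In Elbe against Danube the same genes had 0.17, 0.15, -0.09 and 0.03.

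Of the members not yet given, rps-12 had the highest estimates, at 0.24 in Elbe and 0.29 in Rhine against Danube, followed by rps-14, whose human counterpart is tied to the 5q- syndrome, at 0.20 and 0.17. rps-15, a head protein, had -0.23 in Elbe and 0.08 in Rhine. rps-8, rps-28 and rps-29 were below 0 in both comparisons, from -0.12 (rps-8 in Elbe) to -0.35 (rps-29 in Rhine), and rps-29 was high on Danube 2 and 4 (1.49 and 1.26). Differences of rpsa-1, rps-13, rps-15A, rps-16, rps-26 and rps-27 lay between -0.16 and 0.11. None of these had an unadjusted p under 0.05 by limma in either comparison.

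The study's own lists of changed transcripts hold rps-19 and rps-25 for Elbe and rps-20 and rps-24 for Rhine. They were chosen on these same samples and are not independent evidence. The authors' value table follows the loess-corrected Cy5 signal, so the signals of both dyes were set side by side. Each is a log2 signal after the loess correction, with the array's median taken off. That correction was fitted to both dyes and shared equally between them, so neither signal is free of the other dye. rps-19 (T05F1.3) encodes a head protein, and its human counterpart is the gene most often mutated in Diamond-Blackfan anaemia. In Cy5 it stood at 4.20, 4.67, 4.79, 5.30 and 4.90 in Elbe worms, against 3.81, 4.24, 3.95, 2.17 and 4.47 in Danube worms, a difference of 1.05 (SE 0.40, limma adjusted p = 0.49). In Cy3, the common reference, the same spot stood at 4.17, 4.89, 4.70, 5.45 and 4.83 on the Elbe arrays, against 3.83, 4.45, 4.35, 2.08 and 4.67 on the Danube arrays, a difference of 0.93 (SE 0.42, limma adjusted p = 0.96). Elbe 4 was the brightest and Danube 4 the dimmest of these 10 arrays in both dyes, and the difference in the ratio was 0.13 (SE 0.19, limma adjusted p = 0.94). The ratio of rps-19 moved with the correction and with single arrays, as it differed by 0.51 with one loess curve per array (unadjusted p = 0.081, limma), by 0.69 with median centring without loess (unadjusted p = 0.15, limma) and by 0.080 without Danube 3.

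For rps-25 the Cy5 signal was 5.16, 5.38, 5.41, 5.63 and 5.70 in Elbe worms, against 5.34, 4.31, 4.37, 3.42 and 5.36 in Danube worms, a difference of 0.90 (SE 0.38, limma adjusted p = 0.54). The reference signal differed by 1.12 (SE 0.46, limma adjusted p = 0.96). Danube 2, 3 and 4 were dim in both channels. In the ratio, rps-25 stood at -0.33, -0.22, -0.39, -0.14 and -0.19 in Elbe worms, against -0.16, -0.57, 0.21, 0.46 and -0.16 in Danube worms. That is a difference of -0.21 (SE 0.25, limma adjusted p = 0.93), of the other sign than in Cy5, and it was -0.34 without Danube 2, -0.084 without Danube 4 and -0.04 with median centring without loess.

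rps-20 in Cy5 was at -1.63, 0.39, 0.42, 0.36 and 0.74 in Rhine worms, against 1.55, 1.46, 1.14, 1.82 and 1.09 in Danube worms. The groups did not overlap, and the difference was -1.36 (SE 0.40, limma adjusted p = 0.42). That difference includes the spot on Rhine 1, which was at the lowest confidence grade (uncorrected Cy5 of 214.3). The other Rhine arrays also lay below all Danube arrays. The share of all probes without overlap in Cy5 was not counted. In Cy3 it was at -0.54, -0.82, -1.47, -0.01 and 1.61 on the Rhine arrays, against 1.25, 0.29, 0.88, 1.04 and 1.43 on the Danube arrays, a difference of -1.22 (SE 0.45, limma adjusted p = 0.48). Its ratio was scattered, at -1.08, 1.22, 1.86, 0.43 and -0.80 in Rhine worms, against 0.26, 1.09, 0.25, 0.68 and -0.38 in Danube worms. It differed by -0.05 (SE 0.48, unadjusted p = 0.911, limma), or by 0.30 without Rhine 1. rps-24 differed by -0.67 (SE 0.38) in Cy5 and by -1.41 (SE 0.58) in Cy3, and its ratio by 0.82 (SE 0.64, limma adjusted p = 0.57) in Rhine against Danube worms, or by 0.013 without Rhine 1.

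**Figure D5:**
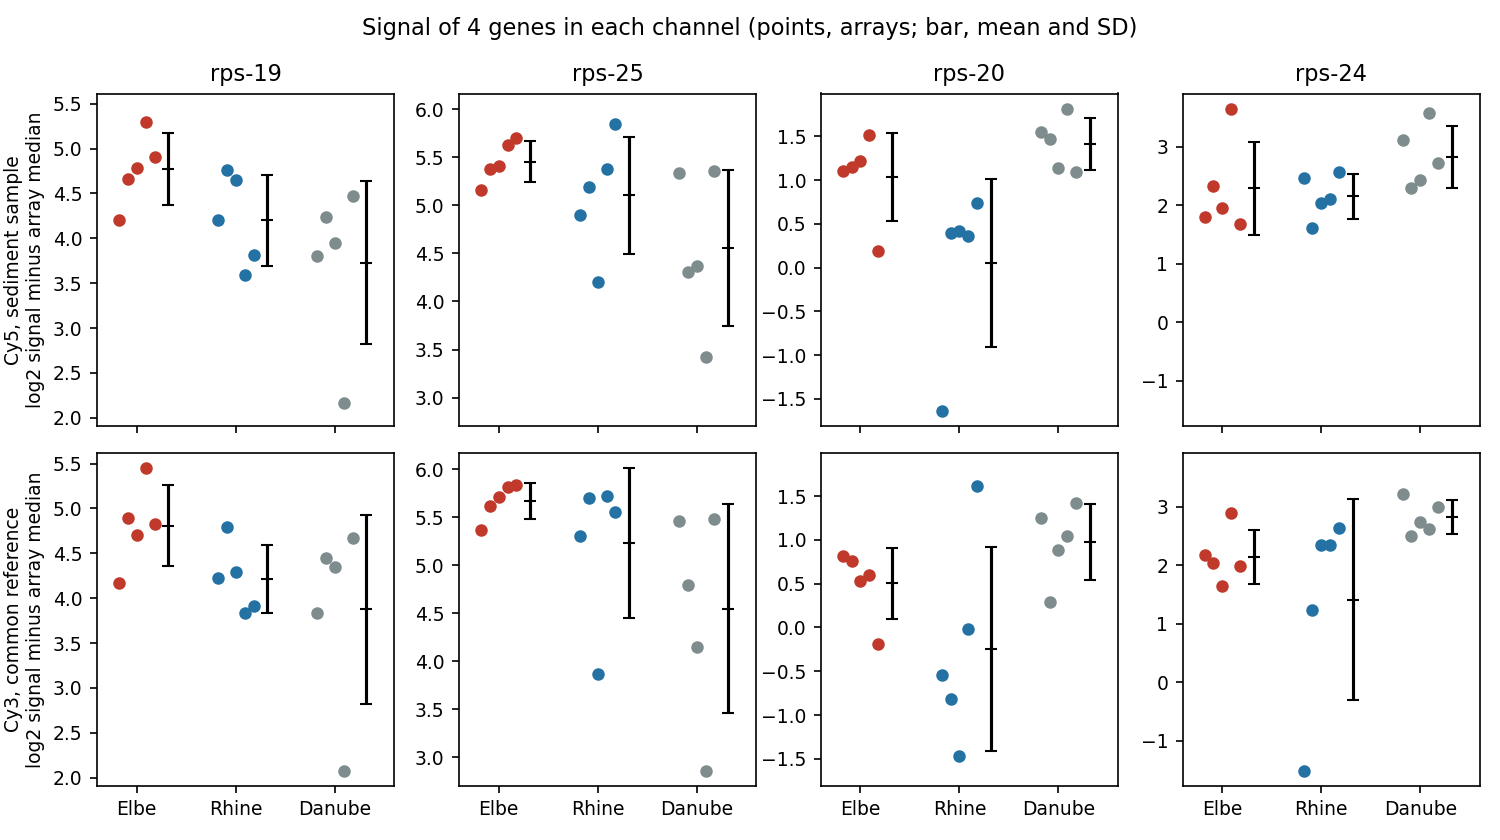
Log2 signal after the loess correction, minus the array median, for the 4 genes in the study's lists. Cy5 (sediment sample) is in the upper row and Cy3 (common reference) in the lower row. Elbe, Rhine and Danube arrays run from left to right, with replicates 1 to 5 in order as points. Bars give mean and SD, and the axis is shared within a column. In rps-19 and rps-25 the Danube 4 point is the lowest in both rows, and in rps-20 both rows have lower Rhine than Danube means (differences of -1.36 and -1.22).

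Over the whole group, median differences in these loess-corrected signals had the same sign in both dyes. The correction draws the ratio toward 0 and is split between the dyes, so a shared sign follows largely from it. It is not a result about either dye. Before correction and centring, the members' Cy5 median (middle array) was 17647 in Elbe, 21191 in Rhine and 11967 in Danube worms. In Cy3 it was 8425.5, 5755 and 7579, and the ranges over arrays overlapped in both dyes. In Cy5 alone, Elbe against Danube gave a median difference of 0.37 over the members (0.14 over all probes), with 22 of 31 above 0 and 5 higher at the methods' thresholds (rpsa-1, rps-3A, rps-4, rps-19 and rps-25), against 7.24% of all probes. In Cy3 alone the members' median was 0.28 (0.08 over all probes), with 20 of 31 above 0 and 2 higher (rps-19 and rps-25), against 2.54%. Rhine against Danube gave -0.18 in Cy5 (-0.01 over all probes), with 0 higher, against 4.54% of all probes, and 4 lower (rps-9, rps-13, rps-20 and rps-26), against 4.47%. In Cy3 it gave -0.19 (-0.18 over all probes), with 0 higher, against 1.29%, and 5 lower (rps-3, rps-9, rps-17, rps-20 and rps-24), against 7.67%. Between Elbe and Rhine, 29 of 31 members were above 0 in both corrected channels, as were 64.8% of all probes in Cy5 and 74% in Cy3. The uncorrected Cy5 median of the members was lower in Elbe (17647) than in Rhine worms (21191). The Cy5 count therefore holds for the corrected signal only. The members' medians were 0.48 in Cy5 (0.16 over all probes) and 0.50 in Cy3 (0.29 over all probes). In Cy5, 2 were higher (rps-13 and rps-20), against 6.62%, and 0 lower, against 2.43%, and in Cy3, 2 were higher (rps-3 and rps-17), against 8.43%, and 0 lower, against 1.5%. No member passed after adjustment in either channel. The correlation of log2 Cy5 with log2 Cy3 over the 15 arrays was taken on the uncorrected signals, without loess or centring. It had a median of 0.44 over the members, from -0.23 (rps-15) to 0.86 (rps-4), as a description of spots that share an array. The reference channel alone was compared after the data had been seen. The reference is labelled as the same on every array, and what made its spots differ was not tested.

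Among the other genes of the ribosome, large-subunit genes had median differences of 0.08 in Elbe and 0.14 in Rhine against Danube, with 0 and 2 of 47 higher at the methods' thresholds and 0 lower. Mitochondrial ribosomal protein genes had 0.18 and 0.21, with 1 and 3 of 27 higher. Of all probes, 4.34% were higher in Elbe and 11.4% in Rhine worms. Of 31 genes for ribosome assembly and its control on the array, 10 passed the filter. Their median difference was -0.18 in Elbe against Danube, with 0 past the thresholds, and 0.38 in Rhine against Danube, where dao-5, a nucleolar protein, was higher at an unadjusted p (0.89, SE 0.31, limma adjusted p = 0.34). In Elbe against Rhine, 2 of the 10 were lower, against 8.02% of all probes, with a median of -0.58. They were eif-6, which keeps unfinished large subunits from joining small ones, at -0.70 (limma adjusted p = 0.43), and nol-56, a part of the particle that methylates ribosomal RNA, at -0.73 (limma adjusted p = 0.39).

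Markers of stage and tissue were read beside these values, because a changed share of a tissue and a changed amount of RNA per cell cannot be told apart in whole worms. Of 32 markers on the array 21 passed, among them col-19 of the adult cuticle, 5 of 6 yolk protein genes and both pharyngeal myosins, and 1 of 21 (4.76%) was higher in Elbe and 5 of 21 (23.8%) in Rhine against Danube worms at the methods' thresholds, against 4.34% and 11.4% of all probes. The array medians of the 21 ran from -0.21 to 0.06 in Elbe, -0.12 to 0.50 in Rhine and -0.88 to -0.04 in Danube worms, with Danube 2 and 4 the lowest. Their part in the small-subunit values was not tested. The next 2 alternatives depend on which Danube arrays are kept. Danube 4, left out or set apart in them, had the highest member median of all arrays (0.44), and Danube 5 had the lowest (-0.10). The members also moved together over arrays, so their counts above 0 are not counts of independent genes. Without Danube 2 and 4, an alternative chosen after seeing the data, 28 of 31 small-subunit genes were above 0 in Elbe against Danube (46% of all probes) and 28 of 31 in Rhine against Danube (62.5%). The members' medians were then 0.17 and 0.25, against -0.04 and 0.14 over all probes, with 0 of 31 higher in Elbe worms at the methods' thresholds (2.88% of all probes), 2 higher in Rhine worms (rps-7 at 0.65 and rps-3 at 0.91, against 5.27% of all probes) and 0 called after adjustment. In the fit blocked by slide series, where the comparison with Danube rests on Danube 5 alone, the medians were 0.27 in Elbe and 0.34 in Rhine worms, against -0.0092 and 0.17 over all probes. Of the 31 members 28 and 30 were above 0, against 49.2% and 62.6% of all probes, and 0 were past the methods' thresholds.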

How the data were processed

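Whole worms exposed to Elbe, Rhine or Danube sediment were measured on 15 two-colour oligonucleotide arrays, 5 per sediment, with Cy5 for the sample and Cy3 for a universal reference. The deposited spot files hold the unnormalised linear intensity in both dyes and a confidence score per spot, which the authors made with BlueFuse 3.4. A value table deposited by the authors holds a linear ratio of each probe to its own median over the arrays, after print-tip Lowess and median polishing, and the methods do not say which signal was polished. Its rows carry no gene names and were matched to members by their pattern over arrays. Of 32 members, 32 matched at a correlation above 0.99 with the loess-corrected Cy5 signal. The value table served as an alternative only. The authors' print-tip loess was repeated here from the intensities in limma 3.58.1 (R 4.3.3) with 48 blocks, a span of 0.3 and 4 iterations, and with 2370 control or empty spots at weight 0. Spots of 1 probe were averaged. Probes with a confidence above 0.05 on at least 3 of 5 arrays of each sediment were kept (5347 of 19084).

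All 15 arrays entered 1 limma model without a block, in which the 3 sediments share one spread, and p-values were adjusted by Benjamini-Hochberg over the 5347 probes. Exact two-sided permutation tests over the 252 splits of 5 against 5 arrays were run probe by probe and were not adjusted. What is called the methods' t-test is the one-way analysis of variance that the methods name, which for 2 sediments is the pooled-variance test of their means. Symbols came from the RefSeq gene table by sequence name. Named genes were the 4 members with the lowest p in each comparison, the 4 in the study's lists, the brightest and the dimmest spots, and the largest and the smallest SD. The members, the gene lists and these rules were chosen with earlier results of these data known. The replicate numbers of the labels were not used to pair the arrays, because their same-numbered correlations were not all above 0.1. That rule cannot show that pairing is absent, and a fit with the replicate number as a block was run as an alternative. Tested on simulated data for Elbe against Danube, the model recovered 77 of 100 probes changed by 2 and 22 of 100 changed by 1 on the log2 scale, with 2 false calls. The changed probes were drawn from all 5347, with independent normal noise. The members had a smaller median SD (0.35, against 0.61) and moved together, so these rates are not those of the members. The number of arrays limits the precision. Another normalization, filter, quantity, block or set of arrays was tried as an alternative.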

Additional observations from a re-analysis of the deposited data

Results flagged for a closer look

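In 9 of 96 groups of 5 arrays, 1 array lay farther from the others than Dixon's 95% criterion allows, which chance gives in about 1 group in 20. Of these, 3 concerned Danube 4, 2 Elbe 4, 2 Rhine 1, 1 Rhine 2 and 1 Rhine 4. On Rhine 1, rps-24 stood at 3.98 against -0.34 to 0.38 on the other Rhine arrays, and rps-17 at 3.50 against 0.24 to 0.44.

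On Elbe 4, rps-15A stood at 1.08 against 0.08 to 0.27 on the other Elbe arrays, and rps-3A at 1.245 against -0.02 to 0.22. rps-15 stood at 1.86 on Rhine 4 against 0.20 to 0.59 on the other Rhine arrays, and rps-14 at -0.17 on Rhine 2 against 0.48 to 0.70.

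On Danube 4, rps-9 stood at 0.60 against 0.06 to 0.15 on the other Danube arrays, and rps-24 at 0.85 against -0.32 to -0.14. The median of all 31 members was 0.44 on that array, against -0.10 to 0.04 on the other Danube arrays.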

How the results depend on the processing

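No member passed an adjusted p of 0.05 (limma) in any of the settings tried. By the methods' t-test on the ratios, more members had an unadjusted p under 0.05 than by limma. They were 1 in Elbe against Danube, 5 in Rhine against Danube and 2 in Elbe against Rhine. The share of all probes at such a p was not counted. At the methods' thresholds that test gave 2 higher in Rhine against Danube, against 6.13% of all probes. For Elbe against Danube, the loess-corrected Cy5 signal without division by the reference gave 5 members higher at the methods' thresholds, against 7.24% of all probes. Its median was 0.37 (0.23 above all probes), with rps-25 at 0.90. The authors' value table gave 4 of 31 higher (3.15% of all its rows), a median of 0.38 (0.37 above all probes) and rps-25 at 0.89. By the methods' t-test 3 of 31 were higher there, against 3.47% of all rows. One loess curve per array put rps-27A at -0.0014. The members' median stood 0.28 above all probes in the fit blocked by slide series and 0.21 above without Danube 2 and 4 (chosen after seeing the data, as was the methods' t-test on the value table).

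For Rhine against Danube, median centring without loess gave 21 higher (33% of all probes), a median of 1.145 (0.35 above all probes, whose own median moved to 0.80) and rps-21 at 0.51, and one loess curve gave a median of 0.34. Loess-corrected Cy5 alone gave 0 higher and 4 lower (4.47% of all probes), a median of -0.18, rps-3 at -0.11 and rps-24 at -0.67. The value table gave 0 higher and 2 lower, also by the methods' t-test, against 3.58% and 3.13% of all its rows that were lower. Its median was -0.18, with rps-3 at -0.10 and rps-24 at -0.73. The slide series as a block gave 0 higher and a median of 0.34, which was 0.18 above all probes. The median stood 0.067 above all probes with array weights and 0.11 above without Danube 2 and 4. rps-20 turned to 0.090 with scaling between arrays, 0.50 with array weights, 0.70 in the fit blocked by slide series and 0.28 without Danube 2 and 4.

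For Elbe against Rhine, median centring gave 11 lower (12.8% of all probes), a median of -0.93 (-0.40 relative to all probes) and rps-21 at -0.54. One loess curve gave 1 lower (10.1% of all probes), a median of -0.34 and -0.063 relative to all probes. Likewise 1 member was lower with ribosomal spots left out of the loess, with good spots on all 15 arrays, with array weights, with only the 2 sediments, by the methods' t-test and without Danube 2 and 4. Loess-corrected Cy5 alone gave 2 higher (6.62% of all probes), a median of 0.48 (0.32 above all probes), rps-17 at 0.48 and rps-24 at 0.13. The value table gave 1 higher, against 3.43% of all its rows, and 2 by the methods' t-test, against 4.275%. Its median was 0.52 (0.47 above all probes), with rps-17 at 0.54 and rps-24 at 0.18. The cause of these changes was not tested.

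With single arrays left out, Rhine against Danube had 1 to 3 members higher. It was 1 without Rhine 3 or Rhine 4, against 10.3% and 8.83% of all probes. From 0 to 1 were lower (rps-21 without Danube 1 or Danube 3, against 1.65% and 1.53% of all probes). The estimate of rps-20 ran from -0.44 to 0.30 and the median from 0.09 to 0.27. Elbe against Rhine had 0 to 1 lower (rps-7 without Danube 2, Elbe 4 or Rhine 5, against 9.56%, 7.91% and 8.9% of all probes). There rps-24 ran from -0.94 to 0.135 and the median from -0.18 to -0.04. Elbe against Danube had medians from -0.0046 to 0.15. Same-numbered arrays correlated between -0.04 and 0.13 in their deviations from the sediment means, and an array correlated best with its own number in 1 (Elbe and Danube), 2 (Elbe and Rhine) and 4 (Rhine and Danube) of 5 cases. With the replicate block, 0 members were past the methods' thresholds in Elbe against Danube (4.23% of all probes were higher and 2.08% lower). In Rhine against Danube 3 were higher, against 11.3% of all probes. In Elbe against Rhine 0 passed, against 2.69% higher and 8.3% lower. Of the summary values (counts and medians of the members) under an alternative, 183 stayed within the spread between arrays or within 1.5 times the count and 45 moved further. With 1 array left out 218 stayed and 7 moved. Part of those that stayed could not move. The medians of a comparison do not change when an array of the third sediment is left out, with the replicate block or with only the 2 sediments. So these tallies do not measure how robust the results are.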
